A study of Mus musculus with 12 samples.

Results

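The TNF superfamily is a set of cytokines that act mostly as trimers on the cell surface or after release, and they bind receptors of the TNF receptor superfamily. Some receptors carry a death domain and recruit adaptors such as Fadd, which leads to caspase activation, and most recruit TRAF proteins, which pass the signal to NF-kB and to MAP kinases. In the intestine these molecules are known for driving inflammation (Tnf), for co-stimulation between T cells and antigen-presenting cells (Cd40lg and Cd40), and for the survival of B cells (Tnfsf13b). The members were chosen by symbol, as every gene on the panel whose symbol starts with Tnfsf, Tnfrsf or Traf, plus Tnf, Fas, Fasl, Cd27, Cd40, Cd40lg and Fadd, with 2 symbols left out by the rule. This gave 28 of the 547 genes of the panel, with 11 ligands, 10 receptors and 7 adaptors. Tradd and Ripk1, also named in the rule, were not among the 547 genes of the panel under these symbols.

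The signals come from a NanoString nCounter panel, which counts colour-coded probes bound to RNA without amplification, and it was run on total RNA from terminal ileum, 1 sample from each of 12 female mice. The mice were offspring of mothers exposed to cecal contents, and they fall into 4 groups of 3. IL10_STAT mice carried the IL10 label, stated in the design as IL10 deficient, and their mothers were exposed to contents perturbed by what the labels call STAT. IL10_control mice carried the same label and their mothers were exposed to control contents. C57_STAT and C57_control mice carried the C57 label, stated as C57BL/6, with the same 2 inocula of the mothers. STAT is not spelled out in the labels, and here it names an inoculum, not the STAT transcription factors. No antibiotic, dose, age, allele, litter, mother or cage was given in the labels, so each p-value measures the spread between these samples only, and mice of a group may share a mother.

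Il10 ran against the genotype label in all samples, with signals of 24.9 to 74.4 in the 6 IL10-labelled samples and 0 to 1.02 in the 6 C57-labelled samples. Where on the transcript this probe sits is not given in the sources used here, and outside a deleted part it would check nothing. The groups are therefore called IL10-labelled and C57-labelled throughout. Counts above background, rebuilt from the spacing of the values, were 541733 to 717454 in IL10_STAT samples, 398625 to 506141 in IL10_control samples, 191012 to 276579 in C57_STAT samples and 146691 to 365850 in C57_control samples. Genotype label and these counts cannot be told apart. The summed signal of 5 epithelial markers was 25472 or more in each sample, and 1 of them, Muc1, stayed under 20 in all C57_control samples. In whole tissue, fewer cells of a type and less RNA per cell cannot be told apart.

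Of the 28 members, 24 reached a signal of 20 in at least 3 samples and were tested, and a signal of 20 stood for 12.8 to 28.4 counts, depending on the sample. Among them, 14 members reached 20 in every sample. Tnf, Cd40lg and Fasl reached 20 only in IL10-labelled samples, and 5 members, these and Cd27 and Tnfsf11, passed the filter only through them. Such members entered the test through the group in which they were high, so counts over the tested members are given as descriptions. The other 4 members stayed under 20 in every sample and were not tested. The highest signal was 13.3 for Tnfsf8, the ligand of Tnfrsf8, and 13.6 for Tnfsf18, the ligand of the receptor GITR. It was 15.8 for Tnfrsf8, known as CD30, and 18.0 for Tnfrsf9, the co-stimulatory receptor 4-1BB. Tnfrsf8 ran from 6.14 to 15.8 in the 6 IL10-labelled samples, against 0 to 4.98 in the 6 C57-labelled ones, a range too low for testing.

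Under both inocula the ileum of IL10-labelled mice carried higher signals of Tnf itself, of its receptor Tnfrsf1b, and of the co-stimulatory pair Cd40lg and Cd40 than the ileum of C57-labelled mice. The Cd40lg calls rest on values near or under 20 and did not hold when values under 20 were set to 20. Tnfsf15, known as TL1A, was lower. Under the STAT inoculum, 9 of 24 tested members were higher and 3 were lower in IL10-labelled samples. Over all 457 genes tested, 40% were higher and 11.6% were lower in that comparison, 51.6% in all (limma, Benjamini-Hochberg adjusted p under 0.05). Under the control inoculum, 11 of 24 members were higher and 1 was lower, where 53.6% of all genes were higher and 3.94% were lower, 57.5% in all. Before adjustment 12 and 13 members had p under 0.05 under the STAT and control inoculum, beside 54.7% and 61.3% of all genes. The members' shares were thus near those of the panel. The median log2 difference over the 24 members was 0.36 under the STAT inoculum and 1.13 under the control inoculum, beside panel medians of 0.50 and 1.01. With values under 20 set to 20, the members' medians were 0.32 and 0.56.

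The direction of many genotype differences depends on how samples are scaled. The median of all genes lay 0.50 and 1.01 above 0 on the log2 scale under the STAT and control inoculum. When each sample was centred on its own median, 117 genes were higher and 173 were lower under the STAT inoculum, and 125 were higher and 208 lower under the control inoculum. Of the members, 5 were then higher and 8 lower under the STAT inoculum, and 3 were higher and 11 lower under the control inoculum. Tnf, Tnfrsf1b and Cd40 were higher under both of these scalings and both inocula, and after quantile normalization Cd40 did not pass under the control inoculum (adjusted p = 0.103). In each pair of genotype differences the first is that under the STAT inoculum. A set of 11 broadly expressed genes, which median centring pushes down, had median differences of -0.10 and 0.06 in the deposited values. Which scaling is closer to equal tissue input was not tested, and centred values are given beside the differences.

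**Figure D1:**
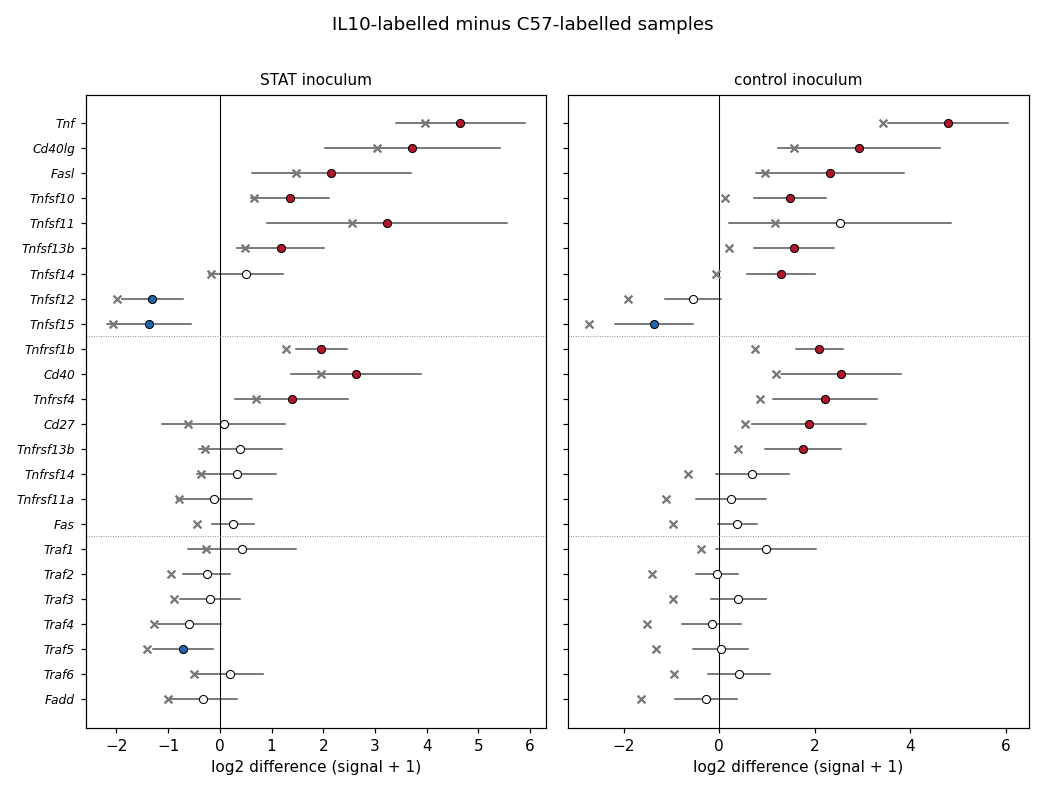
Log2 difference of each tested member, IL10-labelled minus C57-labelled samples, under the STAT inoculum (left) and the control inoculum (right), with ligands, receptors and adaptors from top to bottom. Circles are the differences in the deposited scaling with 95% intervals as lines, filled red where higher and blue where lower at adjusted p under 0.05, and grey crosses are the values after centring each sample on its median. Tnf lies farthest to the right in both panels, at 4.65 and 4.78, and of the 7 adaptors only Traf5 is filled, at -0.72 under the STAT inoculum. The crosses lie to the left of the circles.

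The start regions of 3 members are shown because these members passed in both genotype comparisons under all 23 alternative settings: Tnf and Tnfrsf1b, which were higher, and Tnfsf15, which was lower. Each is the 250 bases before the annotated start, from RefSeq on the mouse build GRCm38.p6, written 5′ to 3′ on the minus strand on which all 3 genes lie. Capitals mark the matches to the motifs searched. The Tnf gene spans chr17:35199367-35202007, and the region printed is chr17:35202008-35202257. The Tnfrsf1b gene spans chr4:145212368-145246870, with the region at chr4:145246871-145247120. The Tnfsf15 gene spans chr4:63724600-63745059, with the region at chr4:63745060-63745309.
Tnf: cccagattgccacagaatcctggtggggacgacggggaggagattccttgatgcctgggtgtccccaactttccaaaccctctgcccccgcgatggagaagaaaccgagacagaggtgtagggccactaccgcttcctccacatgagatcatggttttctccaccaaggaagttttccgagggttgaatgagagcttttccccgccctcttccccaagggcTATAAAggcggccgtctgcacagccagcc
Tnfrsf1b: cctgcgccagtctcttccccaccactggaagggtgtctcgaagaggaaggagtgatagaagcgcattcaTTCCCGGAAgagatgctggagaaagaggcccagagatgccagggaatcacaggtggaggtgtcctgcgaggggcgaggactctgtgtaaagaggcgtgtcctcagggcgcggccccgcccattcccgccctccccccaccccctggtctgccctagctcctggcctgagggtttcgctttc
Tnfsf15: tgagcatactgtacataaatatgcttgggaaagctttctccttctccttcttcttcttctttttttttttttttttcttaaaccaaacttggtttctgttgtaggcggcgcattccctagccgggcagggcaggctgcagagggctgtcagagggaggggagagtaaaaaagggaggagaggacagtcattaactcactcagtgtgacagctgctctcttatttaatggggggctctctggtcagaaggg

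In the Tnf region the capitals are the TATA box letters TATAAA, at -29 to -24 from the start. In the Tnfrsf1b region they are 1 match to TTCNNNGAA, the palindrome that STAT transcription factors bind, at -181 to -173. The Tnfsf15 region held no match to any motif searched. The searches ran on both strands for TATAAA, for TTCNNNGAA, for TGANTCA, which AP-1 binds, and for the NF-kB consensus. Of 32851 promoters of the build, 12.4% held TATAAA, 7.02% TTCNNNGAA, 6.75% TGANTCA and 3.90% the NF-kB consensus. Start regions were found for 25 of the 28 members. Of these 25, 3 held TATAAA (Tnf, Tnfsf11 and Tnfsf18), and 3 held TTCNNNGAA (Fas, Tnfrsf1b and Tnfrsf9). The AP-1 letters were in 5 (Fas, Tnfrsf8, Tnfrsf9, Tnfsf13b and Tnfsf14), and the NF-kB consensus was in 3 (Tnfrsf8, Tnfrsf9 and Traf3). A match is a description of letters and not of binding.

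Among the ligands, 6 of 9 tested were higher and 2 lower under the STAT inoculum, beside 40% and 11.6% of all genes. Under the control inoculum 6 were higher and 1 lower, beside 53.6% and 3.94% of all genes. Tnf, Cd40lg and Fasl were among the 6 in both comparisons, and Tnfsf11 under the STAT inoculum. All of these passed the filter only through IL10-labelled samples. After median centring 3 ligands were higher and 2 lower under the STAT inoculum, and 1 was higher and 2 lower under the control inoculum. Of the 457 genes tested, 117 were then higher and 173 lower, and 125 higher and 208 lower. Tnf, the inflammatory cytokine that names the family, had signals of 189.9, 342 and 244 in IL10_STAT ileum and 193, 224 and 122 in IL10_control ileum, against 19.7, 2.75 and 12.03 in C57_STAT ileum and 3.17, 9.21 and 5.09 in C57_control ileum. The lowest IL10-labelled sample lay above the highest C57-labelled sample, and no C57-labelled sample reached 20. Tnf was at least 12.6-fold higher under the STAT inoculum (log2 difference 4.65 ± 0.57 SE, adjusted p = 0.000106, limma), with the C57-labelled samples set at 20. Under the control inoculum it was at least 8.69-fold higher (4.78 ± 0.57, adjusted p = 3.57e-05). After median centring the differences were 3.96 and 3.42. Without the second C57_STAT sample, at 2.75, the STAT-inoculum difference was 3.94.

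**Figure D2:**
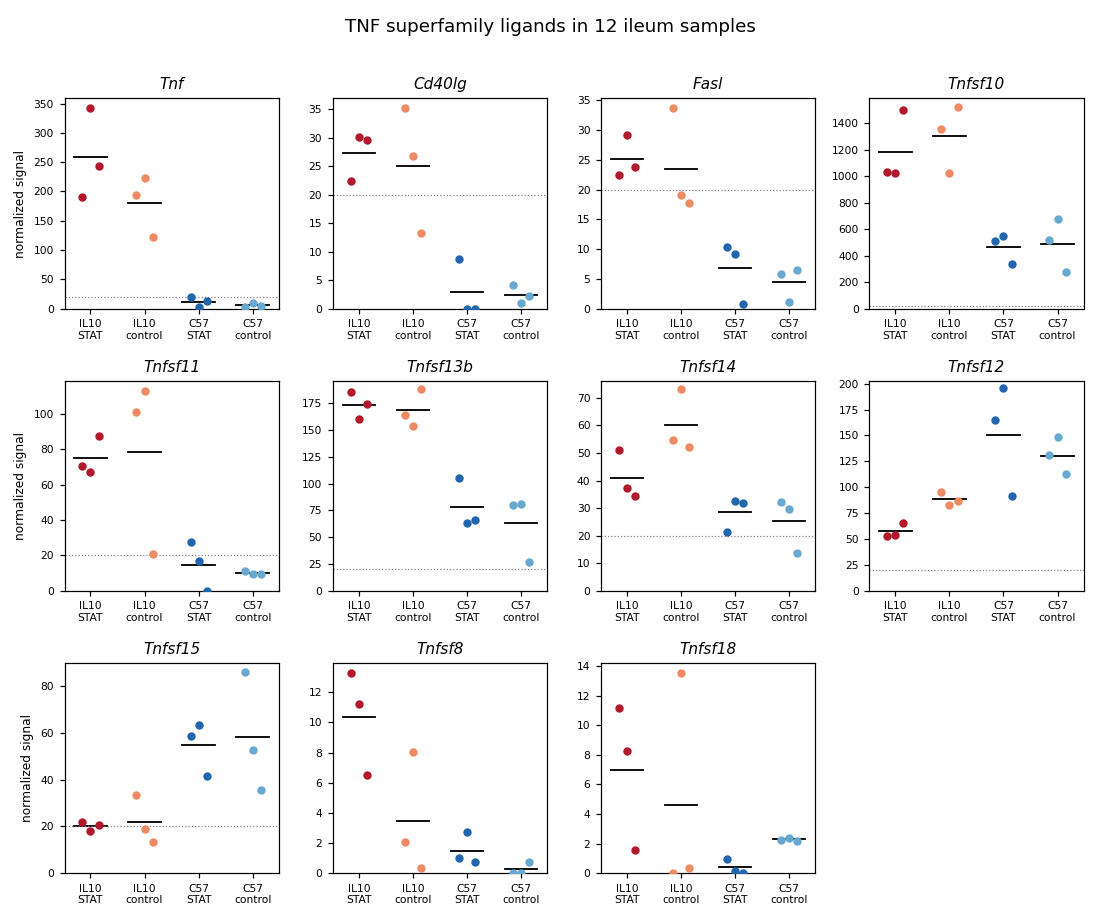
Signal of each of the 11 ligands in the 12 ileum samples, with 3 points per group and a black bar at the group mean. The dotted line marks a signal of 20. In IL10-labelled samples Tnf lies between 122 and 342, above every C57-labelled sample, and Tnfsf15 has the opposite order, with a highest signal of 33.6 in IL10-labelled and a lowest of 35.7 in C57-labelled samples.

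Cd40lg, which activated helper T cells display to B cells and other antigen-presenting cells, had signals of 22.4, 30.2 and 29.6 in IL10_STAT ileum and 35.2, 26.8 and 13.4 in IL10_control ileum, against 8.78, 0 and 0 in C57_STAT ileum and 4.07, 1.02 and 2.18 in C57_control ileum. The groups did not overlap, but 1 IL10_control sample lay under 20 and the C57_STAT mean rested on 1 sample above 0. It was at least 1.36-fold higher under the STAT inoculum (log2 3.72 ± 0.77, adjusted p = 0.00225) and at least 1.17-fold higher under the control inoculum (2.93 ± 0.77, adjusted p = 0.00651). Centred, these differences were 3.03 and 1.57, the second with adjusted p = 0.0579, and after quantile normalization the second was 1.19 (adjusted p = 0.196). With values under 20 set to 20 neither call held, at 0.42 (adjusted p = 0.126) and 0.40 (0.140). Without the first C57_STAT sample, at 8.78, the STAT-inoculum difference was 4.82.

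Fasl, by which cytotoxic lymphocytes trigger death of Fas-bearing cells, had signals of 22.4, 29.2 and 23.8 in IL10_STAT ileum and 33.6, 19.1 and 17.7 in IL10_control ileum, against 10.3, 9.23 and 0.708 in C57_STAT ileum and 5.88, 1.02 and 6.55 in C57_control ileum. It was at least 1.25-fold higher under the STAT inoculum (log2 2.16 ± 0.70, adjusted p = 0.0243) and at least 1.13-fold higher under the control inoculum (2.32 ± 0.70, adjusted p = 0.0138). All IL10-labelled samples were above all C57-labelled ones, though values on both sides were near or under 20. Neither call held after median centring, where the differences were 1.47 (adjusted p = 0.0681) and 0.96 (0.193), after quantile normalization, at 0.45 (0.470) and 0.36 (0.559), or with values under 20 set to 20, at 0.31 (0.268) and 0.24 (0.382). The STAT-inoculum call was also lost without IL10_STAT 2 (2.05), IL10_STAT 3 (2.19) or C57_STAT 3 (1.27), and the control-inoculum call without IL10_control 1 (2.04) or C57_control 2 (1.71). The summed signal of 5 cytotoxic and NK cell markers, none of which is a member, was 459.5 to 515 in IL10_STAT and 606 to 1062 in IL10_control samples, against 60.2 to 92.8 in C57_STAT and 38.6 to 90.9 in C57_control samples. Its part in the Fasl difference was not tested.

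Tnfsf10, known as TRAIL, binds death receptors and had signals of 1028, 1025 and 1496 in IL10_STAT ileum and 1356, 1020.0 and 1524 in IL10_control ileum, against 508, 549 and 335 in C57_STAT ileum and 517, 676 and 274 in C57_control ileum. The genotype groups did not overlap. It was 2.56-fold higher under the STAT inoculum (log2 1.36 ± 0.34, adjusted p = 0.00713) and 2.80-fold higher under the control inoculum (1.48 ± 0.34, adjusted p = 0.0032). The centred differences were 0.67 (adjusted p = 0.0566) and 0.13 (0.687).

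Tnfsf11, known as RANKL, induces the epithelial M cells over lymphoid follicles and had signals of 70.3, 67.1 and 87.3 in IL10_STAT ileum and 101, 113 and 20.6 in IL10_control ileum, against 27.5, 17.0 and 0 in C57_STAT ileum and 11.3, 9.21 and 9.46 in C57_control ileum. Every IL10-labelled sample except IL10_control 3, at 20.6, lay at 67.1 or more, and only 1 C57-labelled sample reached 20. It was 9.42-fold higher under the STAT inoculum (log2 3.24 ± 1.05, adjusted p = 0.0244), and the log2 difference was 1.70 with values under 20 set to 20. With low values left as they are, the difference of 3.24 became 1.74 without C57_STAT 3, a sample at 0, and 4.15 without C57_STAT 1. The call was lost without any 1 of the IL10_STAT samples (3.12 to 3.31, adjusted p from 0.0528 to 0.0657). Under the control inoculum the difference of 2.53 ± 1.05 did not pass (adjusted p = 0.06), although the groups did not overlap.

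Tnfsf13b, known as BAFF, keeps B cells alive and had signals of 186, 160.0 and 175 in IL10_STAT ileum and 164, 154 and 188 in IL10_control ileum, against 105, 63.6 and 65.8 in C57_STAT ileum and 80.1, 81.5 and 26.9 in C57_control ileum. The lowest IL10-labelled sample, at 154.0, was above the highest C57-labelled sample, at 105. Tnfsf13b was 2.26-fold higher under the STAT inoculum (log2 1.17 ± 0.38, adjusted p = 0.0244) and 2.96-fold higher under the control inoculum (1.57 ± 0.38, adjusted p = 0.00427). Centred, the differences were 0.48 (adjusted p = 0.20) and 0.21 (0.554). The STAT-inoculum call was lost without IL10_STAT 1 (1.12), IL10_STAT 3 (1.17), C57_STAT 2 (1.05) or C57_STAT 3 (1.07).

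Tnfsf14, known as LIGHT, binds Tnfrsf14 and the lymphotoxin receptor. Its signals were 51.3, 37.2 and 34.5 in IL10_STAT ileum and 54.7, 73.3 and 52.3 in IL10_control ileum, against 21.3, 32.5 and 31.8 in C57_STAT ileum and 32.1, 29.7 and 13.8 in C57_control ileum. It was 2.45-fold higher under the control inoculum (log2 1.29 ± 0.32, adjusted p = 0.00513), where the difference turned to -0.06 after median centring and -0.52 after quantile normalization. Under the STAT inoculum the difference of 0.51 ± 0.32 did not pass (adjusted p = 0.226), and it turned to -0.18 and -0.51 under these 2 scalings.

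The 2 ligands that were lower in IL10-labelled ileum were Tnfsf15 and Tnfsf12. Tnfsf15, which co-stimulates T cells through its receptor DR3, had signals of 21.7, 18.2 and 20.5 in IL10_STAT ileum and 33.6, 19.1 and 13.4 in IL10_control ileum, against 58.7, 63.6 and 41.8 in C57_STAT ileum and 86.4, 52.9 and 35.7 in C57_control ileum. All IL10-labelled samples were below all C57-labelled ones. It was 2.60-fold lower under the STAT inoculum (log2 -1.38 ± 0.37, adjusted p = 0.00955) and 2.59-fold lower under the control inoculum (-1.37 ± 0.37, adjusted p = 0.00761). Centred, the differences were larger, at -2.07 and -2.73.

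Tnfsf12, known as TWEAK, acts on epithelium and stroma through Fn14 and had signals of 53.4, 54.2 and 65.0 in IL10_STAT ileum and 95.3, 83.2 and 87.0 in IL10_control ileum, against 165, 196 and 91.3 in C57_STAT ileum and 131, 148 and 113 in C57_control ileum. It was 2.48-fold lower in IL10_STAT than in C57_STAT samples (log2 -1.31 ± 0.27, adjusted p = 0.00213), and this passed under all 23 alternatives. Between IL10_control and C57_control samples the difference of -0.55 ± 0.27 did not pass (adjusted p = 0.102), but the groups did not overlap and the centred difference was -1.91 (adjusted p = 4.31e-05). The C57-labelled samples ran from 91.3 to 196 and the IL10-labelled samples from 53.4 to 95.3, with 1 C57_STAT sample, at 91.3, inside the range of the IL10-labelled samples.

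Among the receptors, 3 of 8 tested were higher and 0 lower under the STAT inoculum (3 at an unadjusted p under 0.05), and 5 were higher and 0 lower under the control inoculum (5 unadjusted). Of all genes, 40% and 53.6% were higher in these comparisons. After median centring 2 receptors were higher and 1 lower under the STAT inoculum, and 2 were higher and 3 lower under the control inoculum. Of the 457 genes tested, 117 were then higher and 173 lower, and 125 higher and 208 lower. Tnfrsf1b, the TNF receptor of leukocytes and endothelium also called TNFR2, had signals of 658, 902 and 872 in IL10_STAT ileum and 755, 750.1 and 552 in IL10_control ileum, against 237, 216 and 171 in C57_STAT ileum and 171, 172 and 135 in C57_control ileum. The lowest IL10-labelled sample was above the highest C57-labelled sample by more than the whole range of the C57-labelled samples. It was 3.88-fold higher under the STAT inoculum (log2 1.96 ± 0.22, adjusted p = 6.89e-05) and 4.27-fold higher under the control inoculum (2.09 ± 0.22, adjusted p = 1.8e-05). Centred, the differences were 1.27 (adjusted p = 4.2e-05) and 0.74 (0.000542). Of all tested members it had the smallest p in both comparisons.

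Cd40, the receptor of Cd40lg on B cells, dendritic cells and macrophages, had signals of 143, 121 and 143 in IL10_STAT ileum and 98.3, 182 and 88.4 in IL10_control ileum, against 29.1, 46.8 and 6.37 in C57_STAT ileum and 22.2, 22.8 and 13.8 in C57_control ileum. The groups did not overlap. It was 6.22-fold higher under the STAT inoculum (log2 2.64 ± 0.57, adjusted p = 0.00309) and 5.83-fold higher under the control inoculum (2.54 ± 0.57, adjusted p = 0.00268). The centred differences were 1.95 (adjusted p = 0.00367) and 1.19 (0.0358). Without C57_STAT 3, at 6.37, the STAT-inoculum difference was 1.85. The summed signal of 7 B cell markers was 764 to 934 in IL10_STAT and 248 to 2455 in IL10_control samples, against 201 to 949.7 in C57_STAT and 116 to 306 in C57_control samples. Of 6 tested B cell markers, 0 passed under the STAT inoculum (0 at an unadjusted p under 0.05, limma) and 4 were higher under the control inoculum (5 unadjusted). Of all genes, 40% and 53.6% were higher in these comparisons. The summed signal of 4 dendritic cell markers was 380.2 to 515 in IL10_STAT and 474 to 637 in IL10_control samples, against 129 to 275 in C57_STAT and 75.7 to 120.0 in C57_control samples, and the part of either marker list in the Cd40 difference was not tested.

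**Figure D3:**
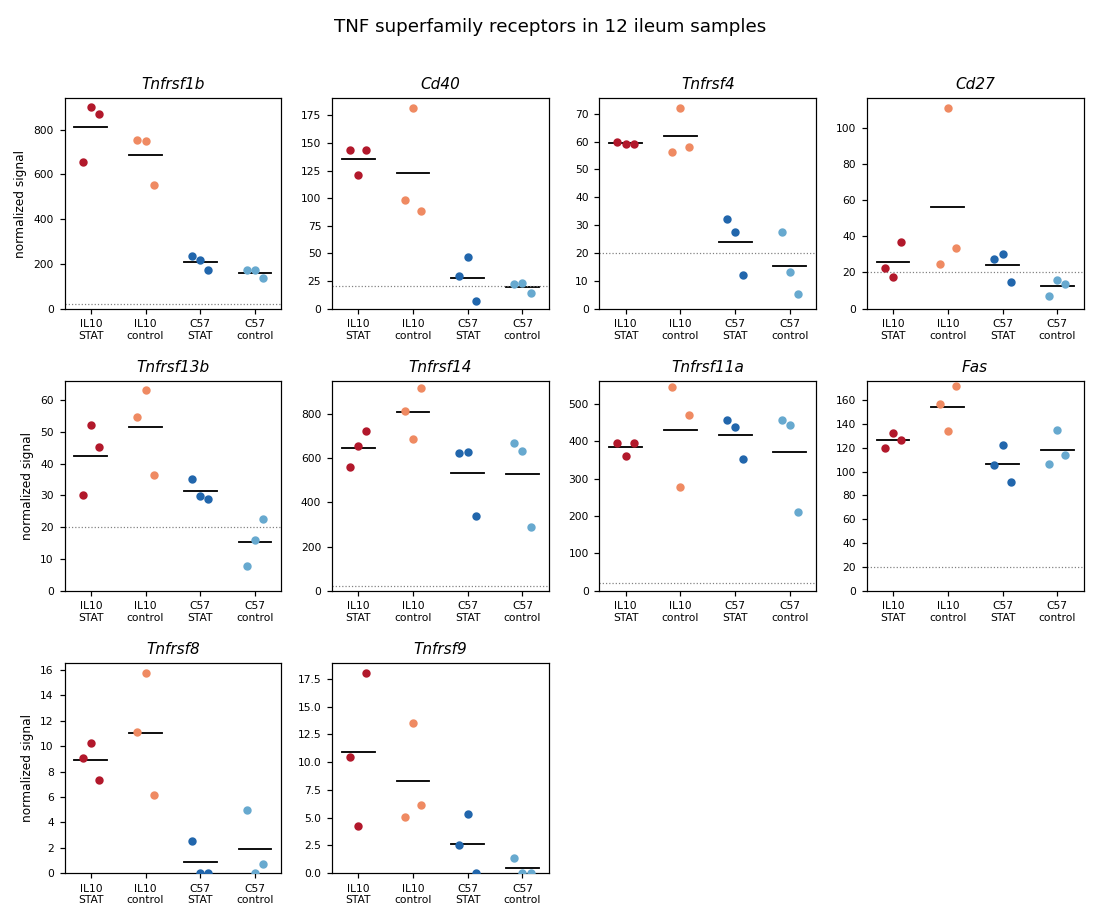
Signal of each of the 10 receptors in the 12 ileum samples, with 3 points per group, a black bar at the group mean and a dotted line at 20. Tnfrsf1b separates the genotype labels, at 552 to 902 in IL10-labelled against 135 to 237 in C57-labelled samples, while Fas, Tnfrsf11a and Tnfrsf14 overlap between them.

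Tnfrsf4, the T cell co-stimulatory receptor OX40, had signals of 59.7, 59.2 and 59.2 in IL10_STAT ileum and 56.2, 72.2 and 58.1 in IL10_control ileum, against 32.2, 27.4 and 12.03 in C57_STAT ileum and 27.6, 13.3 and 5.09 in C57_control ileum. The 3 IL10_STAT samples differed by less than 1 unit, and every IL10-labelled sample was above every C57-labelled one. It was 2.62-fold higher under the STAT inoculum (log2 1.39 ± 0.50, adjusted p = 0.0358) and 4.63-fold higher under the control inoculum (2.21 ± 0.50, adjusted p = 0.00268). Centred, neither passed, at 0.70 (adjusted p = 0.123) and 0.86 (0.0588). The STAT-inoculum call was lost without any 1 of the IL10_STAT samples (1.38 to 1.39), without C57_STAT 2 (1.54) or without C57_STAT 3 (0.98). The summed signal of 10 T cell markers was 1186 to 1517 in IL10_STAT and 1569 to 2271 in IL10_control samples, against 507 to 673 in C57_STAT and 339 to 535 in C57_control samples. Of these 10 markers, 9 were higher under the STAT inoculum and 10 under the control inoculum, beside 40% and 53.6% of all genes. After median centring 5 and 7 of the 10 were higher, beside 117 and 125 of the 457 genes tested. The part of these markers in the Tnfrsf4 and Cd40lg differences was not tested.

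Cd27, a co-stimulatory receptor of lymphocytes, and Tnfrsf13b, the receptor TACI on B cells, passed under the control inoculum only. Cd27 signals were 22.4, 17.2 and 37.0 in IL10_STAT ileum and 24.6, 111 and 33.6 in IL10_control ileum, against 27.5, 30.0 and 14.9 in C57_STAT ileum and 6.79, 16.0 and 13.8 in C57_control ileum. It was at least 2.26-fold higher in IL10_control than in C57_control samples (log2 1.89 ± 0.54, adjusted p = 0.011), with a difference of 1.25 without IL10_control 2, the sample at 111. That sample also had the highest marker sums of B cells (2455), T cells (2271), dendritic cells (637) and neutrophils (29052), and their part in the Cd27 difference was not tested. Tnfrsf13b signals were 30.2, 52.2 and 45.2 in IL10_STAT ileum and 54.7, 63.3 and 36.5 in IL10_control ileum, against 35.3, 30.0 and 29.0 in C57_STAT ileum and 7.69, 16.0 and 22.6 in C57_control ileum. It was 3.38-fold higher in IL10_control than in C57_control samples (1.76 ± 0.36, adjusted p = 0.00155). After median centring and quantile normalization, Cd27 had differences of 0.53 and -0.01 and Tnfrsf13b had 0.40 and -0.16. The STAT-inoculum differences were 0.07 ± 0.54 for Cd27 (adjusted p = 0.923) and 0.39 ± 0.36 for Tnfrsf13b (0.391). Whether the genotype difference changed with the inoculum is tested by the interaction, which neither gene passed.

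The other receptors were measured in every sample and did not pass in the deposited scaling. Fas, the death receptor of Fasl, averaged 126 ± 6.30 in IL10_STAT and 154 ± 19.2 in IL10_control samples, against 106 ± 15.3 in C57_STAT and 118 ± 14.6 in C57_control samples (SD, n = 3 each). Its log2 differences of 0.25 ± 0.19 and 0.38 ± 0.19 did not pass (adjusted p = 0.296 and 0.109), and after median centring the control-inoculum difference was -0.98 (adjusted p = 0.0031). Tnfrsf14, known as HVEM, had signals of 559, 657 and 721 in IL10_STAT ileum and 816, 687 and 919 in IL10_control ileum, against 623, 628 and 340.4 in C57_STAT ileum and 667, 633 and 287 in C57_control ileum. The samples C57_STAT 3 and C57_control 3, which had the fewest counts above background, were its lowest. Its differences were 0.33 ± 0.35 and 0.69 ± 0.35 (adjusted p = 0.452 and 0.112), and they turned to -0.36 and -0.66 when centred. Tnfrsf11a, the receptor of Tnfsf11, differed by -0.11 ± 0.33 and 0.24 ± 0.33 (adjusted p = 0.795 and 0.57). Under the control inoculum, Tnfrsf14 and Tnfrsf11a passed as lower after median centring, and Tnfrsf11a also after quantile normalization. Tnfrsf14 passed there as higher when samples were centred on the broadly expressed genes.

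Among the adaptors, few calls were made in the deposited scaling. Under the STAT inoculum 1 of 7 was lower and 0 were higher, and under the control inoculum 0 of 7 passed (0 at an unadjusted p under 0.05, limma). Of all genes, 11.6% were lower and 40% higher under the STAT inoculum, and 3.94% were lower and 53.6% higher under the control inoculum. Traf5, which acts downstream of Cd40 and Tnfrsf4, had signals of 166, 147 and 165 in IL10_STAT ileum and 252, 192 and 236 in IL10_control ileum, against 308, 327 and 179 in C57_STAT ileum and 257, 245 and 171 in C57_control ileum. It was 1.65-fold lower in IL10_STAT than in C57_STAT samples (log2 -0.72 ± 0.26, adjusted p = 0.0393), a call that was lost without any 1 of the IL10_STAT samples (-0.75 to -0.66), without C57_STAT 1 (-0.60) or C57_STAT 2 (-0.56), and without IL10_control 1 or IL10_control 3 (-0.72 each). Under the control inoculum the difference was 0.03 ± 0.26. After median centring 5 of 7 adaptors were lower under the STAT inoculum and 6 of 7 under the control inoculum. Of all 457 genes tested, 173 and 208 were then lower. Quantile normalization likewise gave 5 and 6 lower adaptors, while centring on the broadly expressed genes gave 1 and 0, as in the deposited scaling. The count of adaptor calls thus depends on the scaling.

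Traf2, which joins Tradd and the TNF receptors to ubiquitin ligases, had signals of 108, 127 and 130.1 in IL10_STAT ileum and 137, 119 and 149 in IL10_control ileum, against 159, 156 and 124 in C57_STAT ileum and 147, 162 and 113 in C57_control ileum, and the genotype groups overlapped. Its differences were -0.26 ± 0.20 (adjusted p = 0.326) and -0.05 ± 0.20 (0.867). Fadd, which links death receptors to caspase 8, averaged 133 ± 9.52 in IL10_STAT and 129 ± 30.5 in IL10_control samples, against 171 ± 46.1 in C57_STAT and 159 ± 50.0 in C57_control samples. Traf6, the adaptor shared with Toll-like receptors, averaged 392 ± 30.0 and 403 ± 34.1 in the IL10-labelled groups, against 345 ± 51.6 and 321 ± 126 in C57_STAT and C57_control samples. Traf3, which restrains the non-canonical NF-kB kinase, differed by -0.19 ± 0.26 and 0.39 ± 0.26. Traf4, known mainly from epithelium, differed by -0.59 ± 0.28 (adjusted p = 0.10) and -0.16 ± 0.28, with all IL10_STAT samples below all C57_STAT samples. Traf1, itself an NF-kB target, differed by 0.43 ± 0.47 and 0.98 ± 0.47 (adjusted p = 0.473 and 0.101). Its signals were 154, 182 and 74.0 in IL10_control samples and 59.3, 136 and 32.7 in C57_control samples.

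**Figure D4:**
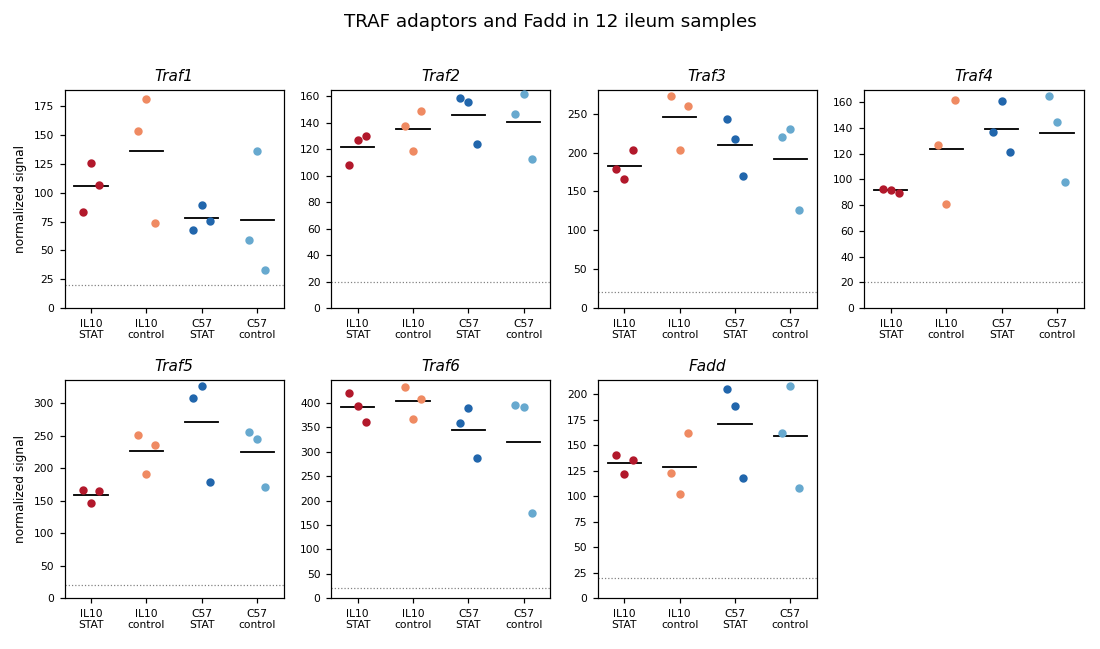
Signal of each of the 7 adaptors in the 12 ileum samples, with 3 points per group, a black bar at the group mean and a dotted line at 20. The genotype groups overlap for most adaptors. In IL10_STAT samples Traf5 lies at 147 to 166, below the 3 C57_STAT samples at 179 to 327.

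The differences under the 2 inocula come from different samples, but the spread behind both sets of calls was estimated from all 12 samples. The 2 sets of calls are therefore not independent. Of the members higher in IL10-labelled ileum, 8 were called under both inocula, which is 88.9% of the 9 called under the STAT inoculum and 72.7% of the 11 called under the control inoculum. They were Cd40, Cd40lg, Fasl, Tnf, Tnfrsf1b, Tnfrsf4, Tnfsf10 and Tnfsf13b. Over all genes, 178 were higher under both inocula, which is 97.3% of the 183 called under the STAT inoculum and 72.7% of the 245 called under the control inoculum. Of the 8 shared members, 3 (Tnf, Cd40lg and Fasl) passed the filter only through IL10-labelled samples. Tnfsf15 was lower in both. Under the STAT inoculum the genotype groups did not overlap for 10 members that were higher and 4 that were lower, where 47.3% and 17.3% of all genes, together 64.6%, did not overlap. Under the control inoculum the counts were 13 and 2, beside 56.0% and 5.25% of all genes, together 61.3%.

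Neighbouring genes of the pathway were described through 4 lists. The panel held 3 other genes of the family, the lymphotoxins Lta and Ltb and their receptor Ltbr. In each comparison 2 of these 3 were higher, beside 40% and 53.6% of all genes. Lta averaged 39.1 ± 7.72 in IL10_STAT against 12.8 ± 6.65 in C57_STAT samples, and 49.7 ± 10.4 in IL10_control against 7.97 ± 2.26 in C57_control samples. Its log2 differences were 1.67 ± 0.39 (at least 1.93-fold, adjusted p = 0.00446) and 2.50 ± 0.39 (at least 2.44-fold, adjusted p = 0.000208). Lta stayed under 20 in every C57-labelled sample and passed the filter only through IL10-labelled samples. Ltb, which with Lta builds lymphoid tissue, differed by 1.07 ± 0.36 (adjusted p = 0.0279) and 2.07 ± 0.36 (0.000505). Ltbr did not pass, at -0.22 ± 0.17 (adjusted p = 0.30) and -0.07 ± 0.17 (0.744).

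Of 13 NF-kB kinases, subunits and inhibitors on the panel, 3 were higher and 0 lower under the STAT inoculum (3 at an unadjusted p under 0.05), and 4 were higher and 0 lower under the control inoculum (5 unadjusted). Over all genes, 40% and 53.6% were higher and 11.6% and 3.94% lower, with 54.7% and 61.3% at an unadjusted p under 0.05. The list's medians were 0.05 and 0.36, beside panel medians of 0.50 and 1.01. Those that passed are inhibitors or modulators that NF-kB itself induces. Tnfaip3, known as A20, averaged 850.0 ± 143 in IL10_STAT against 254 ± 41.9 in C57_STAT samples, a difference of 1.74 ± 0.26 (adjusted p = 0.000321), and 1.70 ± 0.26 under the control inoculum (0.000181). Bcl3 differed by 1.44 ± 0.28 (adjusted p = 0.0016) and 1.47 ± 0.28 (0.000941), and Nfkbiz by 0.69 ± 0.21 (0.0167) and 0.87 ± 0.21 (0.00379). Nfkbia passed under the control inoculum, at 0.66 ± 0.23 (adjusted p = 0.0304), and not under the STAT inoculum, at 0.33 ± 0.23 (0.266). After median centring 1 was higher and 7 lower under the STAT inoculum, and 0 higher and 11 lower under the control inoculum. The panel of 457 tested genes then had 117 higher and 173 lower, and 125 higher and 208 lower.

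Of 6 death-signalling genes, 1 was higher and 1 lower in each comparison. Over all genes, 40% and 53.6% were higher, and 11.6% and 3.94% were lower. Casp8, the initiator caspase that Fadd recruits, was higher by 0.91 ± 0.20 (adjusted p = 0.00364) and 0.90 ± 0.20 (0.00283) in the deposited scaling, and the second value turned to -0.46 when centred. Cradd, an adaptor with a death domain, was lower by 0.94 ± 0.22 (adjusted p = 0.00461) and 0.76 ± 0.22 (0.0112) on the log2 scale. The list's medians were -0.15 and -0.07.

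Genes that TNF is known to induce in stroma, endothelium or epithelium gave 8 of 10 tested higher and 0 lower in both comparisons, with 8 at an unadjusted p under 0.05 in each. Over all genes, 40% and 53.6% were higher, and 54.7% and 61.3% had an unadjusted p under 0.05. The list's medians were 2.78 and 2.62, the panel's 0.50 and 1.01. Cxcl1 and Il6 passed the filter only through IL10-labelled samples, and with values under 20 set to 20 the list's medians were 1.83 and 2.43. Ccl2, a monocyte chemokine, averaged 626 ± 130.5 in IL10_STAT against 43.2 ± 23.5 in C57_STAT samples (log2 3.93 ± 0.46, adjusted p = 8.53e-05), and it differed by 4.03 ± 0.46 under the control inoculum (3.15e-05). Cxcl10, also induced by interferon, differed by 4.19 ± 0.39 (adjusted p = 1.7e-05) and 5.54 ± 0.39 (1.52e-06). The adhesion molecules Icam1 and Vcam1 differed by 1.67 ± 0.27 and 1.65 ± 0.29 under the STAT inoculum, and both by 2.62 under the control inoculum. Il6 differed by 4.62 ± 1.10 and 3.73 ± 1.10, at least 3.10-fold and 1.52-fold. Tnfaip6 and Ccl20 did not pass in either comparison. After median centring, the 457 tested genes had 117 higher and 173 lower under the STAT inoculum, and 125 higher and 208 lower under the control inoculum. On this list 8 were then higher and 1 lower under the STAT inoculum, and 5 higher and 1 lower under the control inoculum. Other cytokines induce these genes too, and the summed signal of 4 neutrophil markers was 1818 to 7408 in IL10_STAT and 325 to 29052 in IL10_control samples, against 2.83 to 48.2 in C57_STAT and 13.98 to 20.4 in C57_control samples. The part of either in these differences was not tested.

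The inoculum of the mothers was the contrast the study's design set within each genotype label. In IL10-labelled ileum, 0 of 24 members passed, and 0% of the 457 genes did (limma, adjusted p under 0.05). Without adjustment 31 genes had p under 0.05, which is 6.78%, and 1 of them was a member. The members' median log2 difference was -0.13 and the panel's -0.22. Groups did not overlap in the lower direction for 5 members, against 21.2% of all genes, and in the higher direction for 0 members, against 1.97%. For Tnf, at 0.53 ± 0.57, the 95% interval, not adjusted for the number of genes, ran from -0.73 to 1.78.

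**Figure D5:**
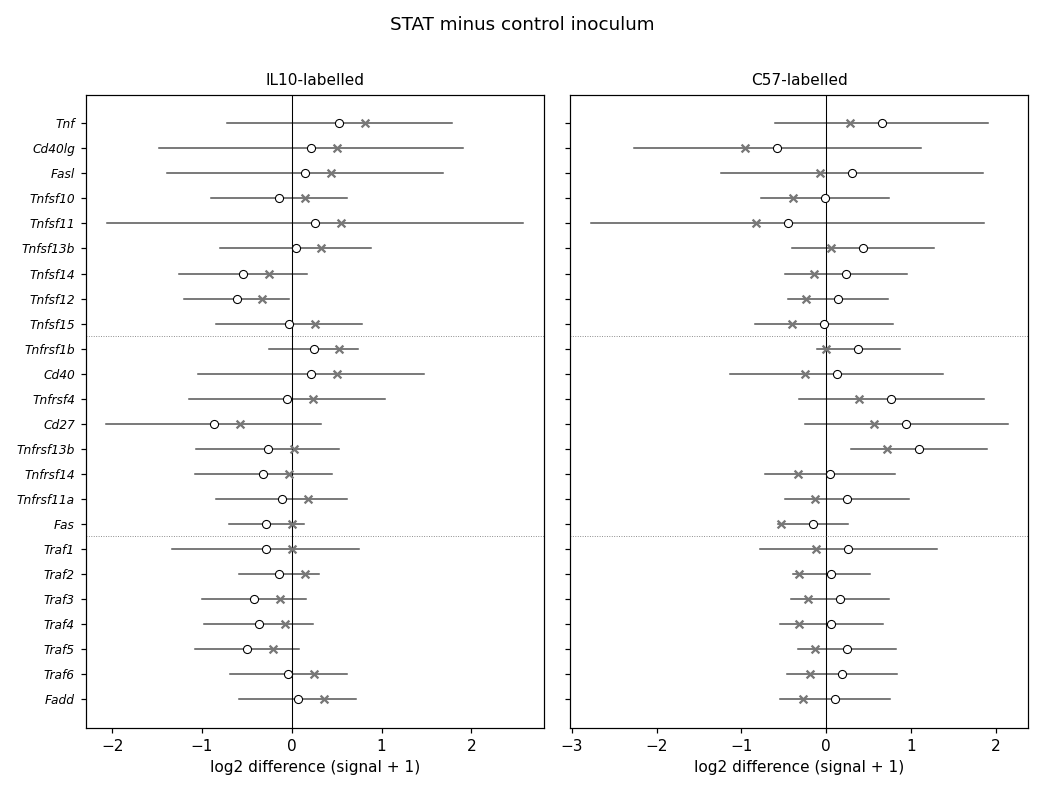
Log2 difference of each tested member, STAT minus control inoculum, in IL10-labelled (left) and C57-labelled samples (right), with 95% intervals as lines and grey crosses for the values after centring each sample on its median. All circles are white because 0 of 24 members passed in either panel, and centring moves the values to the right on the left side and to the left on the right side.

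The member of smallest p in IL10-labelled ileum was Tnfsf12, at 53.4, 54.2 and 65.0 in IL10_STAT against 95.3, 83.2 and 87.0 in IL10_control samples. All 3 IL10_STAT samples were below all IL10_control samples. The difference was -0.62 ± 0.27 (interval -1.21 to -0.03, adjusted p = 0.718), and -0.33 after median centring. Traf5 differed by -0.50 ± 0.26, at 166, 147 and 165 in IL10_STAT against 252, 192 and 236 in IL10_control samples, again without overlap. Tnfsf14 (-0.55 ± 0.32), Traf3 (-0.42 ± 0.26) and Cd27 (-0.87 ± 0.54) shared its adjusted p of 0.823. Without IL10_control 2, the Cd27 difference was -0.23. Fas differed by -0.28 ± 0.19 (adjusted p = 0.833), a value that turned to 0.01 after median centring and 0.09 after quantile normalization. With array weights, whose iteration stopped before convergence, 40 genes passed in this comparison. Among them were 2 members, Tnfsf12 (-0.62, adjusted p = 0.0328, limma) and Traf5 (-0.60, 0.0244).

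In C57-labelled ileum, 0 of 24 members passed, beside 0.875% of all genes, which were 4 genes and all higher with STAT. Without adjustment 79 genes had p under 0.05, which is 17.3%, with 1 member among them. The members' median was 0.17 and the panel's 0.24. That member was Tnfrsf13b, at 35.3, 30.0 and 29.0 in C57_STAT against 7.69, 16.0 and 22.6 in C57_control samples. It was the 1 member whose groups did not overlap, against 15.8% of all genes in the higher direction. The difference was 1.09 ± 0.36 (interval 0.29 to 1.89, adjusted p = 0.144), and 0.71 after median centring. With array weights it passed here (1.52, adjusted p = 0.0081) and in the interaction (-1.73, adjusted p = 0.011). The B cell marker sum in the same samples was 949.7, 828 and 201 in C57_STAT, against 116, 306 and 190.7 in C57_control. The part of B cell number in this difference was not tested.

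After Tnfrsf13b, the members of smallest p in C57-labelled ileum did not pass. Cd27 differed by 0.94 ± 0.54 (adjusted p = 0.417), Tnfrsf1b by 0.38 ± 0.22 (0.432), Tnfrsf4 by 0.77 ± 0.50 (0.492), Tnf by 0.66 ± 0.57 (0.649) and Tnfsf13b by 0.43 ± 0.38 (0.653). The Tnfrsf1b value was -0.00015 after median centring. Without C57_control 3, Tnfsf13b differed by -0.08, and without C57_STAT 2, Tnf differed by 1.36.

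The interaction, the inoculum difference in IL10-labelled minus that in C57-labelled samples, gave 0 members and 0% of all genes (limma). Before adjustment 97 genes (21.2%) had p under 0.05, among them 2 members. These were Tnfrsf13b, at -1.36 ± 0.51 (adjusted p = 0.181), and Cd27, at -1.81 ± 0.77 (0.202), receptors of lymphocytes. Their inoculum differences were -0.27 and -0.87 in IL10-labelled samples, the first turning to 0.02 after median centring, and 1.09 and 0.94 in C57-labelled samples. Without IL10_control 2 the Cd27 value was -1.18. Tnfsf12 (-0.76 ± 0.38) and Traf5 (-0.74 ± 0.37) had an adjusted p of 0.272. Tnfsf12 passed without C57_STAT 3 (-1.08, adjusted p = 0.0365) and without the 2 samples of fewest counts (-0.98, 0.0293), and Traf5 passed in the second of these settings (-0.84, 0.041). Tnfsf14 (-0.78 ± 0.46, adjusted p = 0.365) and Traf3 (-0.58 ± 0.37, 0.401) completed the 6 members of smallest p. The median over the 24 members was -0.29 and that of the panel -0.48, which turned to 0.19 after median centring. In the 4 pathway lists, with 3, 13, 6 and 10 tested genes, 0 genes passed in either inoculum comparison (limma). At an unadjusted p under 0.05 there was 1 in IL10-labelled and 3 in C57-labelled samples, beside 6.78% and 17.3% of all genes. All were on the list of genes that TNF induces.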

How the data were processed

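Per the labels' protocols, total RNA came from TRIzol extraction with an RNeasy clean-up, and pairs of a reporter and a capture probe bound each target. The authors deposited 1 table of a linear, normalized signal for 547 genes and 12 samples, and its normalization is not given in the sources used here. The values lie on steps of 1 size in each sample, from which counts above background were rebuilt. Groups came from the genotype and treatment labels, and samples were numbered within a group by accession order.

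The filter kept the 457 of 547 genes that reached a signal of 20 in 3 or more samples. A single linear model of 4 groups, with 8 residual degrees of freedom, was fitted to log2(signal + 1) by limma 3.58.1 (R 4.3.3). A gene passed at a Benjamini-Hochberg adjusted p under 0.05 over the 457 genes. Errors are standard errors from the fit for log2 differences, and SD for signals. The log2 differences of low genes depend on how low values are treated. For Cd40lg, the genotype difference of 3.72 under the STAT inoculum became 0.42 with values under 20 set to 20. A fold against a group that is under 20 in every sample is a lower bound with that group set at 20. The 5 contrasts were STAT against control inoculum in each genotype label, their difference, and IL10-labelled against C57-labelled under each inoculum. An exact permutation test of 3 against 3 samples cannot give p below 0.1, so none was run.

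The 23 alternatives changed the scaling, pseudocount, filter, samples and variance model, 2 of them chosen after seeing the data. The members, gene lists and marker lists were chosen with earlier results of these data known. All members may be named. Full statistics are given for members that passed or, where fewer than 6 passed, for the 6 of smallest p, and up to 6 genes of smallest p are named from each list. Promoter regions and coordinates come from RefSeq, GRCm38.p6, and all 28 symbols were current there. Start regions for Cd40, Cd40lg and Tnfsf12 are not shown.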

Additional observations from a re-analysis of the deposited data

How the results depend on the processing

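Of the recomputed member differences, 882 kept their direction and their side of the threshold, 50 no longer passed, 9 passed anew and 11 changed sign. Tnf, Tnfrsf1b and Tnfsf15 passed under all 23 alternatives in both genotype comparisons. The changes of sign came mostly from scaling, and their cause was not tested. Between genotype labels under the control inoculum, Tnfsf14 had -0.065 after median centring and -0.52 after quantile normalization, which also gave -0.0066 for Cd27 and -0.16 for Tnfrsf13b. For the inoculum in IL10-labelled samples, Fas had 0.0051 centred and 0.086 after quantile normalization. In C57-labelled samples, Tnfrsf1b had -0.00015 centred, and Tnfsf13b had -0.027 with array weights and -0.083 to 0.70 with 1 C57_control sample left out in turn, the lowest without C57_control 3. For the interaction, Tnfsf14 had 0.011 after quantile normalization and Traf3 had 0.084 centred. Counts moved as follows. With array weights, whose iteration stopped before convergence, members passing were 2 in the IL10-labelled inoculum comparison, 1 in the C57-labelled one and 3 in the interaction, and genes passing were 40, 83 and 132. Without the 2 samples of fewest counts, 2 members passed in the interaction, and 3, 31 and 59 genes in these comparisons. For the inoculum in C57-labelled samples, where 4 genes passed, 0 did after median centring, 0 after quantile normalization, 0 with only the groups compared, 2 when centred on broadly expressed genes, 1 with no filter and 8 with an intensity trend. Leaving out 1 sample at a time gave 0 to 44 genes there, 0 to 58 genes and 0 to 1 members in the interaction, and 7 to 12 members for the genotype under the STAT inoculum, where 12 passed. No paired analysis was possible because the labels carry no shared replicate numbers. Members near a signal of 20, about 12.8 to 28.4 counts, have differences that depend on how low values are treated.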
